A study of Mus musculus with 6 samples.

Results

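The 2 libraries made from 3 ng of total RNA were compared with the 4 made from 10 or 30 ng, out of 6 libraries in all. The libraries were chosen by the input given in their titles, and both reaction volumes were present on each side. All 6 came from 1 stock of RNA, diluted from 100 ng/µl, from pooled dorsal root ganglia (DRG). The ganglia were taken at embryonic day 14.5 from 18 embryos of unrecorded sex, wild-type mice of strain C57BL/6J. At each input, 1 library was made with the RNA in 9 µl (high volume) and 1 with the RNA in 1 µl (low volume), each volume with its own SMARTer low-input kit, so the volume and the kit cannot be told apart. The cDNA of every library was sheared for 3 min and amplified by 12 cycles of library PCR. The libraries are technical repeats of 1 pool, so errors and p-values here describe the making of libraries and not differences between embryos.

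DRG are the clusters of sensory neurons beside the spinal cord, and at this stage they also hold glial precursors, vessels, blood cells and connective tissue. SMARTer chemistry primes on the poly(A) tail and switches template at the 5′ end, so that whole transcripts are copied and then amplified. A transcript that is not copied in the first reaction cannot be recovered by later amplification, and a transcript present in few copies is the one most exposed to that draw. A gene that is listed at 0 in a library can therefore still be expressed in the tissue.

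The chosen transcripts, 1 per gene, held 14160401 tags (reads assigned to a feature) in the high-volume and 15920967 in the low-volume 3 ng library, against 23511774 to 31524211 in the 10 and 30 ng libraries. Counts of features were therefore made after every library was thinned at random to 14160401 tags, as the mean of 10 draws. A count of 3 tags, the upper limit that a count of 0 allows, was worth 0.212 and 0.188 CPM (counts scaled to the library's total) in the 3 ng libraries and 0.0952 to 0.128 in the others, for counting error only. Tags carry no molecular identifiers, so copies made by PCR count as separate tags. The tissue label was borne out by the markers in the 3 ng libraries too: all 16 sensory neuron genes had 5 or more thinned tags in each of the 6 libraries, and their summed level was 19450 and 23190 CPM at 3 ng against 18100 to 21770.

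Fewer genes were detected from 3 ng at equal depth. With 5 or more tags, 15288.0 genes were detected in the high-volume and 15009.3 in the low-volume 3 ng library. The 10 and 30 ng libraries each had 16540.1 to 16671.6, and the groups did not overlap. The means were 15148.6 ± 197.1 (SD, n = 2) and 16614.5 ± 55.75 (SD, n = 4), so that the 3 ng libraries reached 91.18% of the other level (two-sided exact permutation test, p = 0.133). That is the smallest p that the 15 ways of choosing 2 of 6 libraries allow, so no such test could pass 0.05.

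The shortfall was wider at lower thresholds and widest for introns. At 1 tag or more the 3 ng libraries held 80.59% of the genes, 71.54% of the exons and 33.07% of the introns found at 10 and 30 ng. At 5 tags or more the shares were 91.18%, 92.45% and 65.63%. At 10 tags or more they were 93.6%, 98.39% and 86.14%, and for exons and introns the groups then overlapped (exact permutation p = 0.2667 for each). Features with a trace of signal were scarce at 3 ng: of the genes with any tag, 8.41% had only 1 to 4 tags, against 19.03%, and of the introns 24.32% against 61.57%. A feature in a 3 ng library was thus more often at 0 or well covered than thinly covered.

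**Figure D1:**
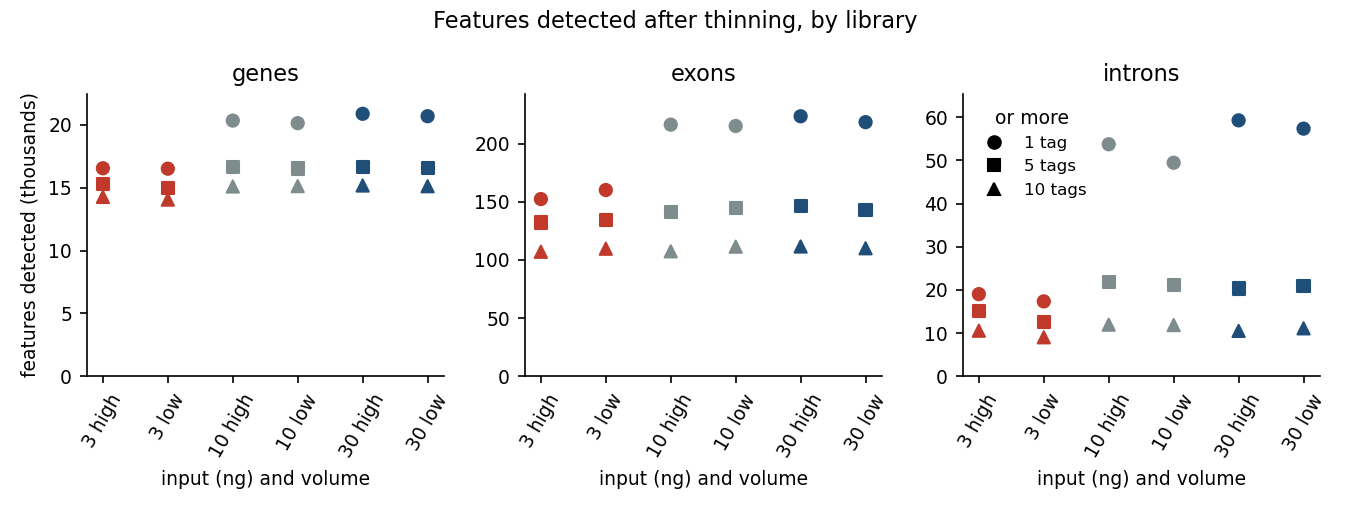
Genes, exons and introns (panels) detected in each of the 6 libraries after thinning to equal depth, in units of 1000 features, at 1, 5 or 10 tags or more (symbols); colours give the input. The 2 libraries of 3 ng sit below the other 4 at 1 and at 5 tags in all 3 panels, most of all for introns at 1 tag (17329.8 and 19016.0 against 49458.3 to 59275.6).

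Absence was then counted among features that were well covered elsewhere. Of the 14139.2 genes with 10 or more thinned tags in each of the 10 and 30 ng libraries, 784.3 had no tag in at least 1 of the 3 ng libraries (5.55%), and 121.6 had none in both (0.86%). The same count for the 10 ng libraries gave 0.9 genes (0.00713%) and for the 30 ng libraries 0.3 (0.00238%), although these counts ask for 10 tags at 3 ng as well and so start from fewer genes. Among exons 4501.5 of 92186.4 were absent from at least 1 library of 3 ng (4.88%), and among introns 2166.0 of 6398.7 (33.9%). From both were absent 362.3 exons (0.393%) and 430.8 introns (6.73%). The 10 and 30 ng libraries counted this way lacked 0.00356% and 0.00218% of exons and 0.0923% and 0.0267% of introns. With 10 or more tags asked of the other 5 libraries, 230.6 genes were at 0 in the high-volume 3 ng library alone and 283.0 in the low-volume one alone. No 10 or 30 ng library had more than 0.1 such gene.

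Most of the absent genes differed between the 3 ng libraries. Of the genes absent at high volume, 28.73% were also absent at low volume, and 25.19% of those absent at low volume were also absent at high volume. Over all genes counted, 3.414% were absent at low and 2.993% at high volume, so absence from 1 library went with more frequent absence from the other. For exons the shares were 12.72% and 17.97%, beside 2.187% and 3.089% over all exons counted. For introns they were 37.18% and 29.96%, beside 22.47% and 18.11%. A further 338.7 genes had 1 to 9 tags at high volume and 10 or more at low volume, and 396.7 had the reverse. In both 3 ng libraries 12533.5 of the 14139.2 genes kept 10 or more tags.

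Abundance went with absence at every level. Of genes with a mean of 10 to 20 tags at 10 and 30 ng, 38.1% were absent from at least 1 library of 3 ng. The share was 23.89% at 20 to 50 tags, 6.833% at 50 to 100 and 0.5756% at 100 to 200. Of the 5282 genes with 200 to 1000 tags 0.01893% were absent. For exons the share went from 17.97% to 0% over the same bands, and for introns from 60.66% to 0%.

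**Figure D2:**
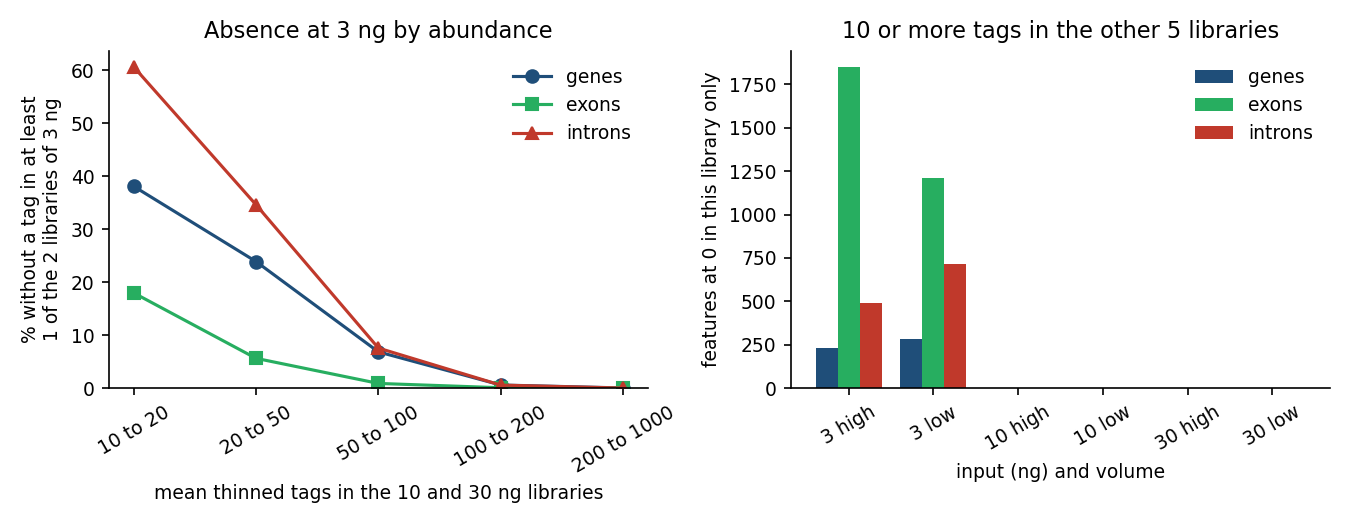
Left: share of features with 10 or more thinned tags in each 10 and 30 ng library that had no tag in at least 1 library of 3 ng, by mean tags at 10 and 30 ng. Right: number of features at 0 in 1 library and at 10 or more tags in the other 5; only the 3 ng libraries have bars that can be seen, with 230.6 and 283.0 genes, 1851.2 and 1211.1 exons and 489.7 and 716.9 introns.

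The best covered genes that were missing from both 3 ng libraries had varied roles. Hist2h2be, a histone H2B gene, had 0 and 0 tags at 3 ng, 85 and 121 at 10 ng and 105 and 200 at 30 ng, high volume first in each pair. Its level in tags was at least 46.4-fold lower at 3 ng, with 3 tags over both libraries as the floor. This bound, and every bound of the form "at least" so many fold below, allows for counting error only. Some genes, given below, had 0 tags in the high- or low-volume 3 ng library and many in the other. Loss while a library is made is therefore not covered, and these bounds set no limit on the level of the RNA. Genes named here were picked for 0 tags in both 3 ng libraries and 10 or more in every other library. That separation was thus set by the choice.

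Spdl1, whose protein recruits dynein to kinetochores, had 0 and 0 tags against 98, 144, 103 and 124 (at least 43.7-fold lower). Mamdc2, a gene of the extracellular matrix, had 0 and 0 against 115, 143, 110 and 83 (at least 42.9-fold). Nrip3, Dhrs11, Zfp493 and Ecm2 were also at 0 in both and were at least 29.4- to 40.1-fold lower. Over the 10 draws, 69 genes were at 0 in both 3 ng libraries and at 10 or more tags elsewhere in every draw.

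Other genes came and went between the 3 ng libraries, and 393 did so in every draw. Gpatch1, a G-patch gene tied to splicing, had 173 tags in the high-volume 3 ng library and 0 in the low-volume one, against 363 to 558 at 10 and 30 ng. Cwc22, a spliceosome gene, had 160 and 0 against 208 to 402. Mtr, methionine synthase, had 65 and 0 against 162 to 297. In these 3 genes the low-volume library was the empty one.

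The reverse was seen in Zfp597, a zinc finger gene, with 0 tags at high volume and 196 at low volume against 141 to 434. Taf1c, a subunit of the RNA polymerase I selectivity factor, had 0 and 412 tags against 199 to 288, so that 1 of its 3 ng libraries was below and the other above every 10 and 30 ng library. Ranbp17, a nuclear transport receptor of the importin family, had 252 and 0 against 166 to 238. The edgeR estimate of the 3 ng difference was near 0 for Taf1c (log2 0.01, SE 1.69), with its 3 ng libraries on both sides of the others.

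**Figure D3:**
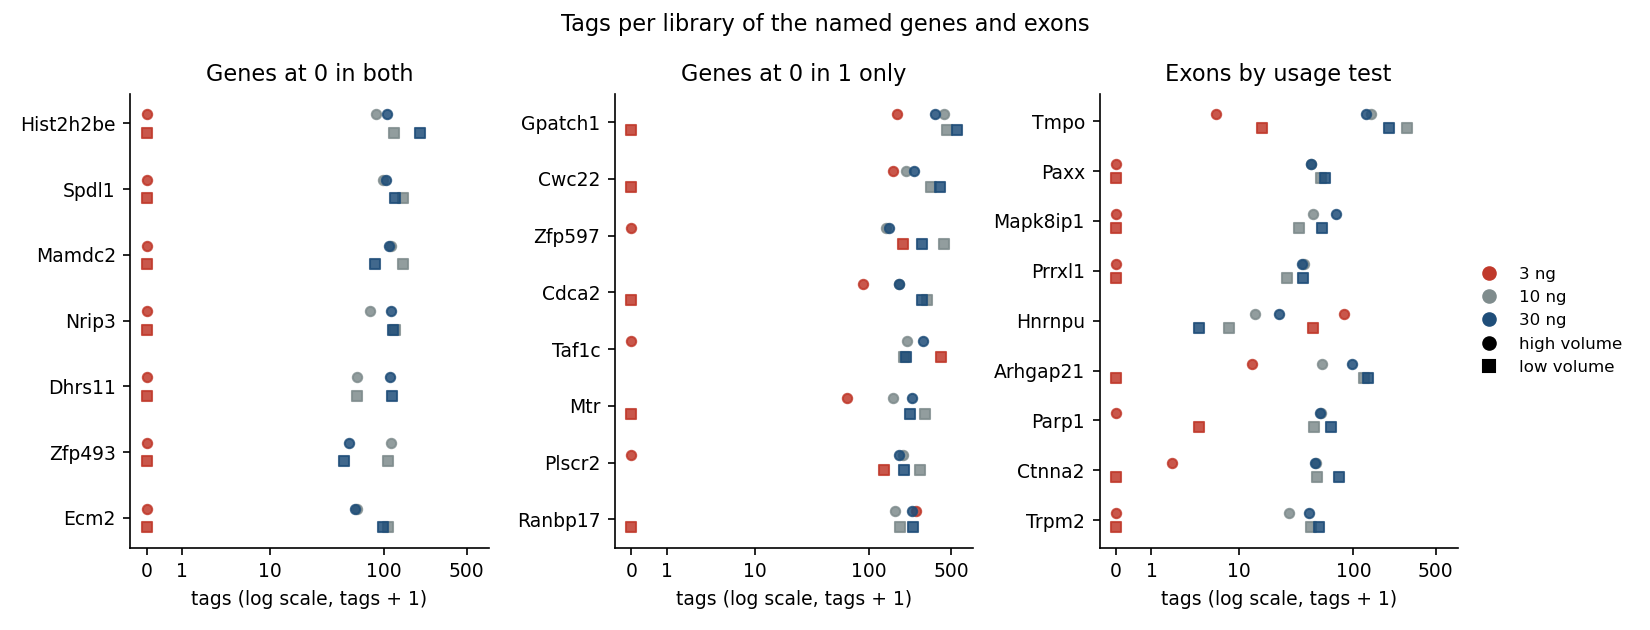
Tags in each library, on a log scale of tags + 1, for genes at 0 in both 3 ng libraries (left), genes at 0 in 1 of them (middle) and the exons of lowest p in the test of exon usage (right); genes that share over 50% of their exonic length with another gene and predicted genes are left out, as are features not reported here. Red 3 ng points lie at 0 in the left panel, at 0 and at 65 to 412 tags in the middle, and on both sides on the right, where Hnrnpu is higher at 3 ng.

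The 3 ng libraries also differed more from each other in level, over genes that include those at 0 in 1 of them. The median absolute log2 ratio between the volumes, over 16368 genes with a mean of 5 or more tags and with 1 tag added to each count, was 0.68 at 3 ng, 0.31 at 10 ng and 0.27 at 30 ng. With 1 pair of libraries per input this is a description without a test. At 20 to 50 tags the medians were 1.63, 0.48 and 0.40, and above 1000 tags they were 0.27, 0.19 and 0.18. Within the high volume, 3 ng differed from 10 ng by 0.50 and from 30 ng by 0.48, while 10 and 30 ng differed by 0.26. Low-volume libraries gave 0.55, 0.53 and 0.22. Departures of the 2 libraries of 3 ng from their 10 and 30 ng partners were only weakly alike across genes, with Spearman's rank correlation between 0.04 at 20 to 50 tags and 0.16 above 1000 tags (genes are not independent replicates).

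**Figure D4:**
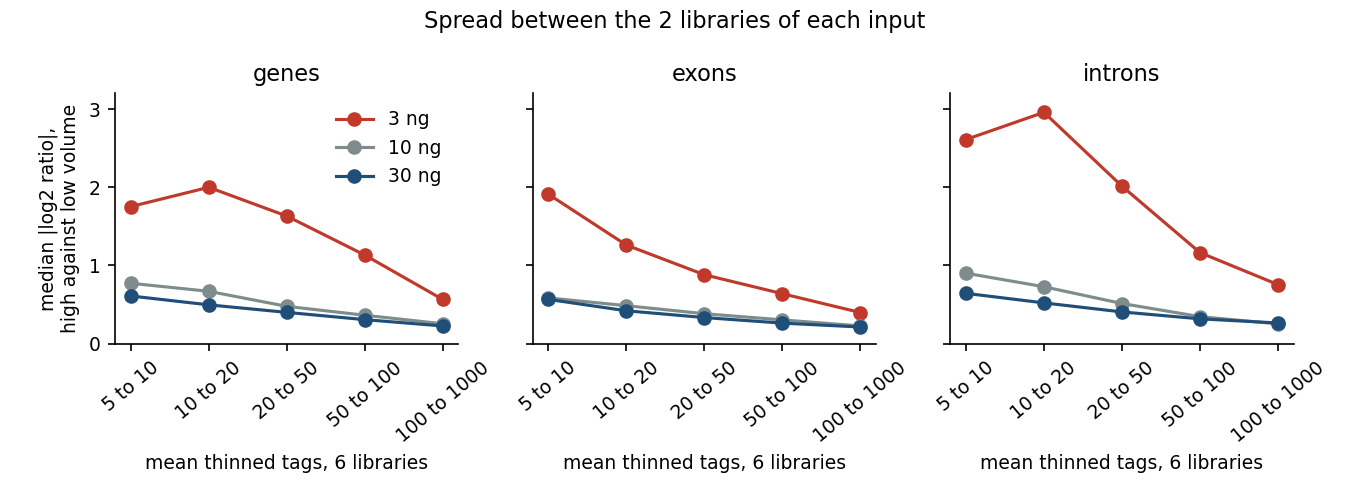
Median absolute log2 ratio between the high- and low-volume library of each input (lines), by mean thinned tags over the 6 libraries, for genes, exons and introns. The 3 ng line lies above the other 2 in every band drawn, and it is at 1.63 against 0.48 and 0.40 for genes of 20 to 50 tags. The 3 lines draw together as tags increase. Features with 1000 tags or more are not drawn, and for introns of that band 3 ng was at 0.32 beside 0.35 at 30 ng.

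No gene passed the threshold of an adjusted p of 0.05 in edgeR's quasi-likelihood test of 3 ng against 10 or 30 ng (0 of 16742 genes, 0.0%). At an unadjusted p under 0.05, 2156 genes were lower at 3 ng (12.9%) and 1251 higher (7.47%). The median log2 difference over all genes was -0.075, and 3084 genes (18.4%) were lower in both 3 ng libraries than in every other library, against 1804 (10.8%) that were higher. DESeq2 on the same counts called 1660 genes, 623 higher and 1037 lower, and limma with library weights (chosen after seeing the data) called 0, with 1314 at an unadjusted p under 0.05. Without the high-volume 3 ng library edgeR called 5192 genes and without the low-volume one 3770; in both fits the lone 3 ng library is assumed to vary like the rest. None of 60089 transcripts and none of 148012 exons passed (0.0% of each), with 12148 and 26887 at an unadjusted p under 0.05 in edgeR. Of the transcripts 13.0% were lower and 7.23% higher at that level, and of the exons 12.0% and 6.17%.

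The 10 genes of lowest p had an adjusted p of 0.0876 in that edgeR fit. Among those higher at 3 ng, Phf1, a Polycomb accessory factor, had 263 and 203 tags against 66, 38, 99 and 49 (log2 2.81, SE 0.32). Parg, the enzyme that removes poly(ADP-ribose), had 705 and 689 tags against 422, 461, 343 and 446 (log2 1.58, SE 0.19). Cass4, a scaffold protein gene, had 26 and 137 against 3, 7, 3 and 8. In all 3 genes both 3 ng libraries were above every other library, although the deeper libraries had more tags in all. By level the same was the case for 10.8% of all genes tested.

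Lower at 3 ng were Xrn1, the 5′ to 3′ exoribonuclease, with 12 and 14 tags against 252, 201, 193 and 249 (log2 -3.25, SE 0.42), and Tek, the angiopoietin receptor of endothelium, with 20 and 41 against 203, 442, 242 and 403 (log2 -2.57, SE 0.33). Chfr, a ubiquitin ligase of the mitotic checkpoint, had 257 and 421 tags against 1037 to 1732 (log2 -1.23, SE 0.15). Mfap3l had 0 and 1 tags against 99, 152, 123 and 187, and Zfp446, a zinc finger gene, had 2 and 3 against 98, 132, 113 and 164. Groups did not overlap in any of these 5 genes, as was the case for 18.4% of all genes tested.

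Transcript classes differed in how many members were missing. Protein-coding genes at 5 tags or more reached 91.4% of the 10 and 30 ng number (13324.8 against 14579.1), and 5.317% of those with 10 tags or more elsewhere were absent from at least 1 library of 3 ng. Long intergenic noncoding RNA genes reached 81.43% (370.9 against 455.5), and 30.6 of 257.2 were absent (11.9%). Antisense genes reached 84.36% with 8.556% absent, and tags here could not be assigned to a strand, so an antisense gene and its partner cannot be told apart where they overlap. For each of these classes the groups did not overlap (exact permutation p = 0.1333, the smallest possible).

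At equal abundance the order was different. At 20 to 50 tags 27.63% of protein-coding genes were absent from at least 1 library of 3 ng (409.3 of 1481.5), against 14.36% of intergenic noncoding, 8.249% of antisense and 3.147% of processed pseudogene loci. Classes of short or structured RNA went the other way at 5 tags: snoRNA loci numbered 49.25 at 3 ng against 35.95, and snRNA loci 11.65 against 5.575. With 1 tag or more they reached 41.02% and 33.45%. Fewer of these loci had tags at 3 ng, and more of those that did had 5 or more.

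Families of genes that share the start of their symbol, grouped after seeing the data, covered the range. Of zinc finger genes named Zfp, 29.3 of 329.5 were absent from at least 1 library of 3 ng (8.892%), and of orphan and adhesion G protein-coupled receptors (Gpr, Adgr) 18.36%. Protocadherins had 11.4% absent, potassium channel genes 10.25% and solute carriers 8.462%. None of 26 sodium and calcium channel genes (Scn, Cacn) was absent in the same sense, and none of 46 genes of respiratory complex I (Nduf). The share over all genes was 5.55%. These shares were not matched for abundance, so a trait of a family and the level of its genes cannot be told apart here.

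Genes with long genomic spans were less stable at 3 ng, and their median level was lower against the mean of the other libraries. Over genes with 10 or more thinned tags in each 10 and 30 ng library, the median log2 level difference was 0.06 under 10 kb. It was -0.19 at 300 kb or more. That filter looks only at the 10 and 30 ng libraries. The spread of the same genes between volumes at 3 ng was 0.47 under 10 kb and 0.85 at 300 kb or more. At 300 kb or more it was 0.30 at 10 ng and 0.25 at 30 ng. Absent from at least 1 library of 3 ng were 4.841% of genes under 10 kb and 7.609% of those of 300 kb or more (36.7 of 482.3). At equal abundance, 20 to 50 tags, the shares were 21.83% and 32.7%. Across 11009 genes, Spearman's rank correlation of span with the log2 difference was -0.10 for 3 minus 10 ng and -0.01 for 3 minus 30 ng at high volume, and -0.19 and -0.14 at low volume. Between 10 and 30 ng, with no 3 ng library, it was 0.16 at high and 0.12 at low volume.

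The 10 genes of largest span were taken among genes with a mean of 100 or more thinned tags over the 6 libraries. All were present in both 3 ng libraries, but hardly any gene of that abundance was absent, so their presence says nothing about span. Ptprd, a receptor tyrosine phosphatase of synapses that spans 2270.7 kb, had 247 and 229 tags at 3 ng against 532, 676, 604 and 860, which as a level was 15.9 ± 2.16 CPM (SD, n = 2) against 24.6 ± 2.08 (SD, n = 4). Its log2 difference was -0.61 (SE 0.20, adjusted p = 0.159 in edgeR). Nrxn3, a presynaptic adhesion gene of 1612.1 kb, had 411 and 365 tags against 816 to 1193 (log2 -0.49, SE 0.19, adjusted p = 0.213). In these 2 genes the levels at 3 ng were below all others, as they were in 18.4% of all genes tested.

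Dmd, the dystrophin gene of 2257.3 kb, had 121 and 79 tags against 225 to 399, and its levels in CPM overlapped between the groups. Cntnap2, Lsamp, Macrod2, Fhit and Rbfox1, most of them neuronal adhesion or RNA-binding genes, had log2 differences from -0.29 to -0.03, and none passed the test. Rbfox1, a splicing regulator, was at 40.3 CPM in the high-volume and 62.9 in the low-volume 3 ng library. Fhit, Lsamp and Rbfox1 changed sign when 1 library was left out.

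Transcript length gave a different order from span. Absent from at least 1 library of 3 ng were 1.801% of transcripts under 1 kb, 5.653% at 1 to 2 kb, 6.485% at 2 to 4 kb, 4.643% at 4 to 8 kb and 2.377% at 8 kb or more. At equal abundance per length, 20 to 50 tags per kb (bands chosen after seeing the data), 13.68% of transcripts under 1 kb were absent, 17.14% at 1 to 2 kb, 4.902% at 2 to 4 kb and 0.7552% at 4 to 8 kb. No transcript of 8 kb or more in that band was absent. At equal tags per kb a longer transcript has more tags in all, and absence fell as tags increased. Length and tag number therefore cannot be told apart in these shares. The median log2 level difference went from 0.05 under 1 kb to -0.13 at 8 kb or more.

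Base composition moved with these values. Under that same filter, genes under 42% GC had a median log2 level difference of -0.21 and those of 54% or more 0.14. Across 11009 genes, Spearman's rank correlation between GC and the log2 difference was 0.27 for 3 minus 10 ng at high volume and 0.34 at low volume. For 3 minus 30 ng it was -0.01 and 0.26, and for 10 minus 30 ng -0.50 and -0.18. Its part in the differences by length and span was not tested.

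No shift of tags along transcripts was detected at 3 ng. On a scale from 0 at the 5′ end to 1 at the 3′ end, the median tag-weighted position over 11277 transcripts of several exons was 0.5431 and 0.541 at 3 ng against 0.5298 to 0.55. The means were 0.542 ± 0.0015 (SD, n = 2) and 0.5422 ± 0.0088 (SD, n = 4; exact permutation p = 0.9333). The sign of that difference turned when 1 library was left out, and in transcripts of 8 kb or more the means were 0.5814 and 0.5784. Single transcripts shifted more at 3 ng: the median absolute difference of position between volumes was 0.038 at 3 ng, 0.015 at 10 ng and 0.018 at 30 ng.

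Coverage within a transcript was patchier at 3 ng. In transcripts of 10 or more exons with 50 to 200 tags, 61.5% ± 2.93 (SD, n = 2) of the exons had no tag at 3 ng against 24.17% ± 1.91 (SD, n = 4). Each value is over 35256 exons of 1821 genes. With 200 to 1000 tags the shares were 28.27% and 6.403%. Both 3 ng libraries, at 63.57% and 59.43% in the lower band, were above all others, which had 21.4% to 25.52% (exact permutation p = 0.1333, the smallest possible).

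At equal tag number long exons and last exons were absent most often. Of exons with 20 to 50 tags at 10 and 30 ng, 15.87% of last exons were absent from at least 1 library of 3 ng (319.7 of 2015.1), against 4.083% of internal and 3.09% of first exons. Exons of 1 kb or more had 20.37% absent and those under 50 bases 1.527%. Counted per length the order was the other way: among exons with 20 to 50 tags per kb, 19.75% of those of 200 to 1000 bases were absent and 6.533% of those of 1 kb or more. Tags on a long exon are thus fewer per base at the same total.

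The test of exon usage asked whether an exon's share of its gene differed at 3 ng. With edgeR's diffSpliceDGE 256 of 126396 exons passed an adjusted p of 0.05 (0.203%), 225 lower (0.178%) and 31 higher (0.0245%). At an unadjusted p under 0.05, 5.46% of the exons were lower and 2.01% higher. The lower calls lay in 177 genes, and 156 of the 225 (69.3%) had no tag in either 3 ng library, against 2.69% of all exons tested. They had a median of 28.0 tags at 10 and 30 ng. Leaving out any 1 of the 10 and 30 ng libraries left 3 to 14 calls, while leaving out a 3 ng library gave 10329 or 15431; limma's diffSplice called 428 exons, 218 higher and 210 lower, 117 of them among the 256, so the excess of lower calls was not seen with that tool.

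Parp1 gives an example of a lower call, and the coding part of its exon is shown because it lies in the interval whose tags were scarce at 3 ng. Tags were counted on the whole interval of 199 bases, which also holds 79 bases of UTR, and not on the coding part alone. It was read from the GENCODE M21 transcripts of GRCm38, 5′ to 3′. Parp1, the poly(ADP-ribose) polymerase of DNA repair, is shown from the start codon (capitals) to the end of exon 1 of Parp1-201 at chr1:180569034-180569153, plus strand, 120 bases of 60% GC.
Parp1: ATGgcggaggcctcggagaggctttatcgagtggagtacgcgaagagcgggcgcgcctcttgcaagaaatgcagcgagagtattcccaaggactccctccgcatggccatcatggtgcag

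The first exon of Parp1 had 0 and 4 tags at 3 ng against 53, 46, 52 and 65 (log2 usage difference -2.74, SE 0.48, adjusted p = 0.00237 in edgeR). The gene as a whole was at 99.9 and 83.4 CPM at 3 ng and at 69.8 to 104.9 in the other libraries, so the exon was scarce in a gene that was not. With each of the 10 and 30 ng libraries left out in turn, the call was lost in 3 of 4 fits.

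The exon of lowest p was the last exon of Tmpo-201 (chr10:91160417-91163361), from the gene of lamina-associated polypeptide 2, with 6 and 16 tags at 3 ng against 140, 283, 128 and 199 (log2 -2.18, SE 0.21, adjusted p = 2.58e-06 in edgeR). The level of Tmpo was 28.4 and 25.3 CPM at 3 ng and 18.6 to 26.4 in the others. Terminal exons of 2 short noncoding transcripts had no tag at 3 ng: Paxx-208, of a DNA end-joining gene, had 0 and 0 tags against 43, 53, 43 and 57 (at least 18.2-fold lower), and Mapk8ip1-203, of a JNK scaffold gene, 0 and 0 against 45, 34, 71 and 54 (at least 19.1-fold lower). These calls, too, concern part of a gene that was detected in both 3 ng libraries.

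Prrxl1, a homeobox gene of sensory neurons, had 0 and 0 tags on its last exon (chr14:32648479-32649246) against 38, 27, 36 and 37, which was at least 13.0-fold lower. Its chosen transcript as a whole had 232 and 244 tags, or 16.4 and 15.3 CPM, against 12.5 to 16.8 CPM. Trpm2, an oxidant-sensitive cation channel, lacked tags on its last exon at 3 ng (0 and 0 against 28, 43, 42 and 51). Ctnna2, the neuronal alpha-catenin, had 2 and 0 on the last exon of Ctnna2-206 against 48, 49, 47 and 76, and Arhgap21, a gene for a GTPase-activating protein, 13 and 0 on exon 9 against 54 to 134. Hnrnpu, a nuclear RNA-binding protein gene, went the other way: its first exon had 83 and 45 tags at 3 ng against 14, 8, 23 and 4 (log2 2.08, SE 0.34, adjusted p = 0.00124 in edgeR).

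Isoforms were followed through exons that overlap no exon of another transcript, which 16767 transcripts have. With 1 tag or more there, 3508.2 isoforms were detected at 3 ng against 5984.9 (58.62%). With 5 or more the numbers were 2827.4 ± 27.72 (SD, n = 2) and 2893.4 ± 38.55 (SD, n = 4), or 97.72%. With 10 or more the order turned, at 2236.6 against 2168.1. Each of these 3 comparisons had groups that did not overlap (exact permutation p = 0.1333). Of the isoforms with 10 tags elsewhere, 104.7 of 1846.3 were absent from at least 1 library of 3 ng (5.671%), and of those annotated as processed transcripts 12.2 of 80.1 (15.23%).

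In all 6 isoforms were at 0 in both 3 ng libraries in every draw, and 52 in 1 of them. Bhlhe40-201, of a clock-linked repressor, had 0 and 0 tags on its private last exon (chr6:108664479-108666925) against 41, 52, 44 and 57 (at least 18.0-fold lower). Tulp3-205, of a gene for ciliary trafficking, and Mmp17-201, of a membrane matrix metalloproteinase, were at least 15- and 14.9-fold lower. Kcnma1-205, of the large-conductance calcium-activated potassium channel, had 54 tags at high and 0 at low volume against 69 to 95, and Setd7-201, of a lysine methyltransferase, 79 and 0 against 73 to 140. All 16 private exons named by this rule were the last exon of their transcript. The rule takes the best covered isoforms and the private exon with most tags in each. The share of last exons among all private exons was not counted, so no link to 3 ng can be read from this.

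Introns showed the largest shortfall. Tags on introns free of annotated exons came to 2.344 and 2.024 per 100 exonic tags at 3 ng against 2.421 to 2.773, with means of 2.184 ± 0.2263 (SD, n = 2) and 2.596 ± 0.1546 (SD, n = 4; exact permutation p = 0.1333, the smallest possible). The tags at 3 ng were gathered in fewer introns, since 1444.0 introns held 50% of the thinned intronic tags against 2366.9, while for genes the numbers were 356.1 and 346.9. In edgeR 0 of 20439 introns passed the threshold (0.0%), with 5625 lower (27.5%) and 525 higher (2.57%) at an unadjusted p under 0.05. Without the volume term 3887 were called. Among introns with 10 tags or more in every 10 and 30 ng library 2088 were called, 2047 lower and 41 higher. That filter looks only at the 10 and 30 ng libraries, so it favours lower calls.

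Absence differed between introns of different length, in shares that were not matched for tag number. Introns under 500 bases had 11.52% absent from at least 1 library of 3 ng, those of 2 to 10 kb 43.84% and those of 50 kb or more 14.46%. Short introns under 500 bases were also the ones detected more often at 3 ng, with 734.5 at 5 tags or more against 390.1. The intron of Xpo1, the nuclear export receptor, at chr11:23271206-23276426 had 0 and 0 tags against 83, 128, 125 and 134 (at least 43.6-fold lower), and an intron of Mdh1, cytosolic malate dehydrogenase, 0 and 0 against 85, 115, 98 and 111 (at least 38.1-fold).

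Among neuronal genes, an intron of Scn7a, a sodium channel gene, had 0 and 0 tags against 59, 117, 41 and 114 (at least 30.3-fold lower). An intron of Cntn4, an axonal adhesion gene, of 162.9 kb had 174 tags at high and 0 at low volume against 202 to 339. Introns of Cadps, a priming factor for dense-core vesicles, and of Acvr2a, an activin receptor, had 35 and 34 tags at high volume and 0 at low volume against 162 to 200 and 157 to 279. Over the draws 189 introns were at 0 in both and 729 in 1 of the 3 ng libraries.

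Lists of cell type and pathway genes were read against that background. None of the genes tested in the 22 lists was called by edgeR, as none was over all genes. Because the tissue was measured in bulk, fewer cells of a type and less RNA per cell cannot be told apart in general, and here every library drew on the same pool. The sensory neuron list was complete at 3 ng, and the spread of the sensory neuron list between volumes was 0.22 at 3 ng, 0.20 at 10 ng and 0.19 at 30 ng. Tubb3, neuronal beta-tubulin, had 73028 and 114069 tags at 3 ng against 109356 to 212774, a log2 difference of 0.06 (SE 0.12). Tlx3, a scarce homeobox gene of sensory neurons, had 20 and 18 tags against 22 to 29.

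Nociceptor and mechanoreceptor lists lost no member that had 10 tags or more elsewhere. Gal, the galanin precursor, had 17074 and 22241 tags against 23103 to 39949 (log2 0.19, SE 0.10, adjusted p = 0.343 in edgeR). The spread between volumes at 3 ng was 0.42 in each list, against 0.16 to 0.21 at 10 and 30 ng. The cytosolic ribosomal protein genes, of still higher level, had a spread of 0.13 at 3 ng, 0.18 at 10 ng and 0.15 at 30 ng.

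**Figure D5:**
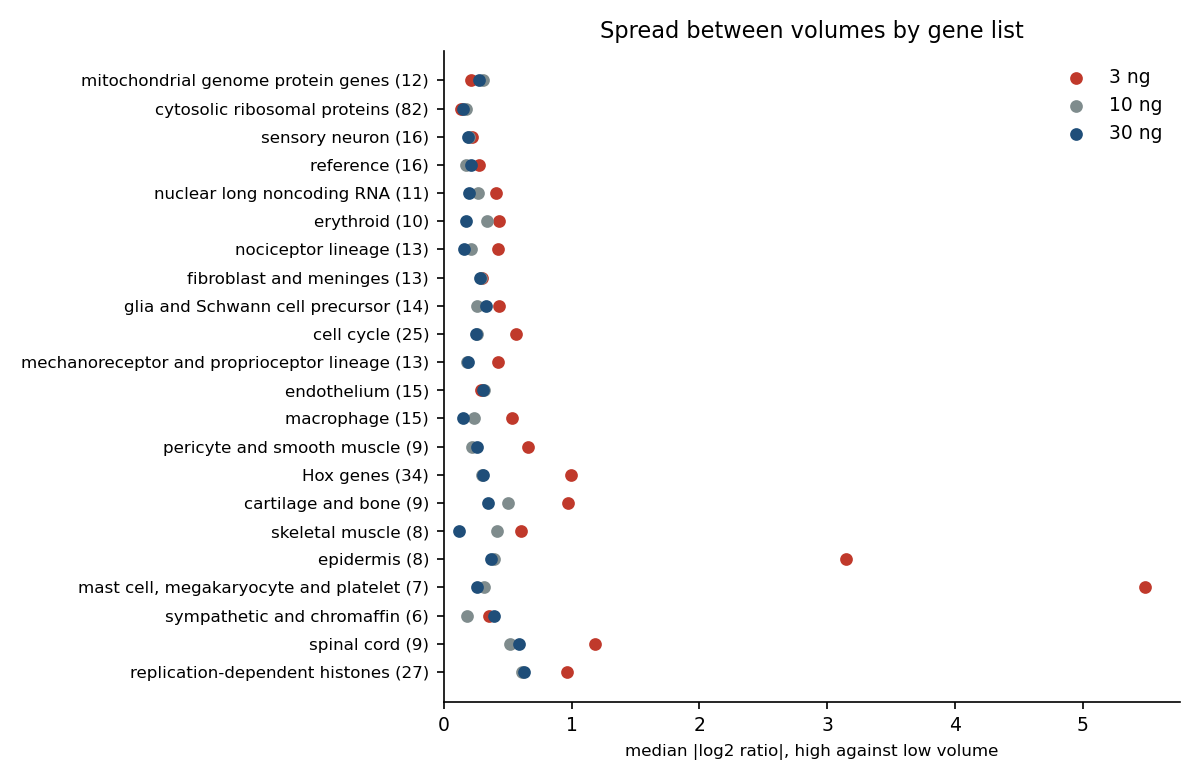
Median absolute log2 ratio between the high- and low-volume library of each input, for the members of each gene list with a mean of 5 or more tags (number in brackets), with the list of highest level at the top. The 3 inputs lie together for mitochondrial, ribosomal and sensory neuron genes, and the 3 ng point lies far above the others for Hox genes (0.99), epidermis (3.15) and mast cells, megakaryocytes and platelets (5.49).

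The pericyte list had a lower sum in both 3 ng libraries, with no gene called. The summed level of the pericyte and smooth muscle list was 87.85 and 90.95 CPM at 3 ng against 109.7 to 116.6, and 7 of its 9 tested genes were below 0, beside 56.3% of all genes, with a median log2 difference of -0.48 beside -0.075. Abcc9, a subunit of vascular potassium channels, had 1 and 12 tags against 103, 119, 119 and 154 (log2 -3.63, SE 0.80, adjusted p = 0.0917 in edgeR). Rgs5, a regulator of G protein signalling in pericytes, had 142 and 367 against 625 to 939 (log2 -0.77, SE 0.29). Des, the muscle filament desmin, had 56 and 0 against 32 to 58, and its sign turned without the volume term.

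The endothelial list summed to 402.8 and 441.2 CPM at 3 ng against 414.6 to 437.3, and the range of the 3 ng libraries spanned that of the others, while 7 of its 15 genes were above 0 and Tek, given above, was lower in both. Sox18, an endothelial transcription factor, had 123 and 2 tags against 52 to 121. Among connective tissue genes Tbx18 had 12 and 0 tags against 55 to 123, while the list of fibroblasts and meninges summed to 1521 and 1513 CPM against 1356 to 1478. A gene at 0 in 1 library was thus found in a list whose sum was not lower.

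Lists of scarce cell types also held missing genes. The macrophage list summed to 291.5 and 345.3 CPM at 3 ng against 293.2 to 336.2, and C1qb, a complement gene, had 918 and 1096 tags against 1434 to 2014. Ptprc, the CD45 phosphatase of leukocytes, had 0 and 0 tags against 36, 74, 39 and 66 (at least 19.8-fold lower), but 100% of its exonic length in the files is shared with another gene, so its tags are uncertain. Gp1bb, of the platelet glycoprotein Ib complex, had 643 and 697 tags against 934 to 1185 (log2 0.20, SE 0.14). In the same list Cpa3, the mast cell carboxypeptidase, had 0 and 0 against 11, 14, 9 and 6 (at least 3.83-fold lower), and Cma1, mast cell chymase, 47 and 0 against 3 to 10.

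Blood and cycling cells gave further examples. Slc4a1, the anion exchanger of red cells, had 10 and 1 tags against 187, 146, 149 and 166 (log2 -4.19, SE 0.76, adjusted p = 0.0876 in edgeR), while the erythroid list as a sum was 4885 and 4578 CPM against 3959 to 4884. Cdc6, a licensing factor of DNA replication, had 6 and 0 tags against 85, 249, 168 and 305 (log2 -5.02, SE 1.09, adjusted p = 0.0916 in edgeR). Of the 25 cell cycle genes 16 were below 0, beside 56.3% of all genes, with 4 lower and 0 higher at an unadjusted p under 0.05, beside 12.9% and 7.47%, so the list was near the background.

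Other genes at 0 in both 3 ng libraries and with tags in every other library were found in the lists of rare or neighbouring tissues. They were picked after their values were seen, except Gata3 and Hoxa6. Pax6 and Gad1, transcription factor and GABA-synthesis genes of the spinal cord, had 0 and 0 tags against 38, 95, 35 and 67 and against 52, 67, 35 and 68. Of the 10 tested genes of the spinal cord list, 5 were below 0 and 5 above. Gata3 had 0 and 0 against 16, 16, 6 and 27 (at least 5.93-fold lower), and Dbh, the noradrenaline-forming enzyme, 0 and 0 against 4 to 32. In their list, of sympathetic and chromaffin genes, 2 of 6 tested genes were below 0 and 4 above, beside 56.3% of all genes below 0. Krt5 of epidermis, Klf1 of red cells, Myod1 of muscle and Gp6 of platelets had at most 15 tags in any library and did not pass the filter on low counts.

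Epcam, an epithelial adhesion gene, was above the other libraries instead, with 24 and 54 tags at 3 ng against 14, 7, 14 and 15 (log2 2.45, SE 0.68, adjusted p = 0.115 in edgeR). Hox genes, which set position along the body axis, had 29.0 detected members in each 3 ng library against 31.7 to 34.4, and 19 of 34 tested were below 0, beside 56.3% of all genes. Hoxa6 had 0 and 0 tags against 20, 4, 22 and 19 (at least 6.15-fold lower). Hoxb3 had 0 and 1 against 9 to 21, with 58.6% of its exonic length shared with another gene.

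Genes often used as references were present in every library. Actb had 102610 and 143942 tags at 3 ng against 192911 to 285247 (log2 -0.12, SE 0.07). Tfrc, the transferrin receptor, had 387 and 208 against 822 to 1678 (log2 -1.10, SE 0.36, adjusted p = 0.159 in edgeR). Its levels at 3 ng were below all others, as they were in 18.4% of all genes tested. All 12 tested protein-coding genes of the mitochondrial genome were below 0, beside 56.3% of all genes. None was at an unadjusted p under 0.05 in edgeR, and their median log2 difference was -0.20 beside -0.075. Their summed level was 75520 and 63480 CPM at 3 ng against 66360 to 94900, and the ranges overlapped.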

How the data were processed

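Full-length cDNA libraries of 1 pooled RNA were sequenced on a HiSeq 2500, per the labels' protocols. CASAVA 1.8, TopHat2 2.0.8 and Bowtie2 2.1.0 and build GRCm38.p1 are named in the submitters' processing notes; for the counter, and for the release of the annotation, nothing was given in the sources used here. The authors deposited, per transcript, exon and intron, a tag count and an RPKM value (reads scaled to length and depth); the counts were analysed and the deposited RPKM values were used only to describe. Every one of 93615 transcript counts equalled the sum of its exons, and 22 exon intervals listed on both strands carried equal counts, so strand was not used. Of the transcripts 89664 matched GENCODE M21 by identifier and 3951 did not.

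One transcript per gene was chosen, giving 37086 genes; exon analyses used 347091 intervals and intron analyses the 172008 of 240179 introns free of exons. Libraries were thinned to 14160401 tags in 10 seeded draws for counts of features. Level differences were fitted with edgeR 4.0.16 (quasi-likelihood test, TMM, volume as a term, low counts filtered, 3 residual degrees of freedom) and exon usage with diffSpliceDGE, with Benjamini-Hochberg adjustment over all features and a threshold of 0.05; SEs were taken from the F statistic. DESeq2 1.42.0, limma 3.58.1, other filters and normalizations and each library left out were alternatives. Scripts were tested on simulated data, and R 4.3.3 and Python 3.11.15 were used. Values per library were compared by exact permutation tests over 15 assignments.

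Genes named are, per level, the 10 of lowest p, the 2 highest and 2 lowest tested members of each list, the 10 best covered lost or unstable features, the 10 genes of largest span and the 10 exons of lowest usage p; predicted genes and genes sharing over 50% of their exons were left out of the first rule. A few features that these rules name are not reported here. The libraries compared, the lists and the rules were chosen with earlier results of these data known. Depth per library and the level of 3 counts are given with the results.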

Additional observations from a re-analysis of the deposited data

Results flagged for a closer look

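Among 129 values looked at, 4 had 1 library of the 10 and 30 ng group far from the other 3. In 12 the 3 ng library was on opposite sides of its 10 and 30 ng partners at the 2 volumes. Genes picked above as lost or unstable at 3 ng, such as Taf1c, are among the 129 values but were left out of these 12. Chance alone puts about 1 in 20 groups past the limit for a distant library. Whether the opposite directions differ between the volumes was not tested, since each volume has 1 library of 3 ng.

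A distant library was seen in 4 values. Of exons with tags, 32.71% had 1 to 4 tags in the low-volume 10 ng library and 34.36% to 34.62% in the other 3. Tag position in transcripts of 4000 to 8000 bases was 0.5519 in the high-volume 30 ng library and 0.5681 to 0.5705 in the other 3. Spdl1 was at 5.368 CPM in the low-volume 10 ng library and at 3.933 to 4.168 in the other 3. Xrn1 was at 10.72 CPM in the high-volume 10 ng library and at 7.461 to 7.899 in the other 3.

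Opposite directions were seen in counts of features and in list sums. The number of genes holding 50% of the tags was 280.0 in the high-volume 3 ng library, below its partners, and 432.1 in the low-volume one, above them. Isoforms annotated for nonsense-mediated decay with 5 or more private tags numbered 64.0 at high volume, above, and 49.8 at low volume, below. Isoforms annotated as processed transcripts numbered 263.0 and 255.3, in the same directions. The summed level of the glial list was 1495 CPM at high volume and 1782 at low volume, of the endothelial list 402.8 and 441.2, and of the macrophage list 291.5 and 345.3, below and then above. The histone list summed to 224.6 and 211.6 CPM, also below its partners at high volume and above them at low volume. The spinal cord list summed to 30.37 and 12.69 CPM, above and then below.

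Single genes of the lists and of the long genes did the same. Sox18 was at 8.686 CPM in the high-volume and 0.1256 in the low-volume 3 ng library, Des at 3.955 and 0.0, and Cma1 at 3.319 and 0.0, above and then below their partners. Rbfox1 was at 40.32 and 62.94 CPM, below and then above.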

How the results depend on the processing

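Counts of calls depended on the libraries and the fit, and the cause was not tested. For genes edgeR called 672 without the filter on low counts and 8 with 3 ng set against 10 ng alone, DESeq2 called 1660, and leaving out 1 library gave 0 to 5192. Leaving out 1 library gave 0 to 19425 transcripts, 0 to 39379 exons, 0 to 11792 introns and 3 to 15431 exons of differing usage; the upper ends come from fits with a lone 3 ng library, without the high-volume one for genes (3770 without the other). Without the volume term 19 exons, 3887 introns and 482 usage exons were called, and limma's diffSplice called 428 usage exons. With 10 tags in every 10 and 30 ng library, a filter on those libraries alone, 2088 introns were called. Of the 256 usage calls 243 were called again without the volume term.

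The difference in the number of isoforms with tags on a private exon, -66.05 at 5 tags, was 68.5 at 10 tags and -85.65 to -46.45 with 1 library left out, and that in tag position along the transcript was then -0.004283 to 0.00245. The excess of the 3 ng spread was 0.395, 0.365 with 5 tags added and 0.346 at 20 tags or more. Genes absent from a 3 ng library numbered 1368.7 with 5 tags asked elsewhere and 372.7 with 20. The shortfall of detected genes kept its sign in each alternative run, from -3982.6 at 1 tag to -969.0 at 10 tags.

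Among 1089 alternative values of named levels 29 changed sign. With 1 library left out Cma1 ranged from -5.474 to 3.627, Cntn4 from -10.877 to 0.346, Cwc22 from -11.257 to 0.328, Des from -7.776 to 0.953, Fhit from -0.543 to 0.031, Lsamp from -0.171 to 0.088, Plscr2 from -10.588 to 0.028, Ranbp17 from -10.439 to 1.155, Rbfox1 from -0.5 to 0.092, Sox18 from -3.82 to 1.048, Taf1c from -10.984 to 1.876 and Tubb3 from -0.046 to 0.166. Without the volume term Des was at 0.365, Ranbp17 at 0.292 and Sox18 at 0.592. Against 10 ng alone Lsamp was at 0.155 and Taf1c at -1.557. Against 30 ng alone Taf1c was at -1.595 and Tubb3 at -0.078, and with a slope on log2 input they were at -0.049 and -0.022. Taf1c was at -0.002 without the filter, -0.082 in DESeq2 and -2.458 in limma with library weights. The labels give no replicate numbers, and volume entered the main fits as a block.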
